A study of Arabidopsis thaliana with 6 samples.

Results

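The genes described here are those of the plastid genome that encode subunits of the chloroplast NADH dehydrogenase-like (NDH) complex in *Arabidopsis thaliana*: *ndhA*, *ndhC*, *ndhD*, *ndhE*, *ndhF*, *ndhG*, *ndhH*, *ndhI*, *ndhJ* and *ndhK*. They were taken by symbol from the platform annotation, and all 10 had 1 probe set that names that gene alone, among 13356 genes so named and 22746 probe sets tested. On these arrays a transcript is read by several short DNA probes, which make up its probe set. The remaining plastid-encoded subunit gene, *ndhB*, lies in the inverted repeat and its probe set names both gene copies, so it was not used here. The study compared inflorescences, the shoot tips with flower buds and open flowers, of wild-type plants and of the *top1α-2* mutant of a DNA topoisomerase 1 gene. Both genotypes were of the ecotype Landsberg erecta, which carries the *erecta* mutation, and were grown in continuous light, and total RNA labelled with biotin was read on 3 arrays per genotype. The design text calls the replicates biological. Neither the nature of the *top1α-2* lesion nor any pooling of plants is stated in the labels. The sample titles call the mutant arrays Trp1, while their genotype and source fields say *top1α-2*, and the genotype field was followed. The mutated gene itself was not analysed here, so its level gives no check of these labels.

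The NDH complex sits in the thylakoid membrane, takes electrons from ferredoxin and passes them to plastoquinone, which returns electrons to photosystem I in a cyclic path and adds to the proton gradient used for ATP synthesis. It is related to complex I of the respiratory chain. The plastid genome encodes the core of the complex, and nuclear genes encode the further subunits, the assembly factors and the proteins that edit and process the plastid transcripts. The products of *ndhA* to *ndhG* form the membrane arm, and those of *ndhH* to *ndhK* form the arm that reaches into the stroma.

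All values below are log2 MAS5 signals, and differences are *top1α-2* minus wild type on that scale, with the standard error of the limma fit. A gene is called when its Benjamini-Hochberg adjusted p over all probe sets is under 0.05. Signals of different probe sets are not comparable as transcript amounts, so each gene is compared with itself across arrays. Over the 11369 brighter probe sets, Pearson's r between arrays was at least 0.955 within a genotype and at most 0.938 across genotypes. Of 6 ratios of 3′ to 5′ control probe sets, which serve as a sign of RNA quality, 1 actin ratio was higher in *top1α-2* without overlap. The other 5 overlapped, and another actin ratio was among them.

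Of the 10 genes, 3 were higher in *top1α-2* inflorescences and 0 were lower. The 3 were *ndhA* and *ndhC* of the membrane arm and *ndhI* of the stromal arm, with increases of 1.80-fold, 1.37-fold and 1.65-fold. Over all probe sets, 3.4% were called higher and 9.26% in either direction. Of the other 7 genes, 5 had positive differences of 0.35 to 0.47 and 2, *ndhF* and *ndhG*, had negative differences with wide errors. The median difference of the 10 genes was 0.41, against 0.00 over all probe sets.

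*ndhA*, which encodes a membrane subunit at the junction of both arms and carries an intron, read 10.52, 10.99 and 11.10 on the wild-type arrays and 11.54, 11.87 and 11.75 on the *top1α-2* arrays. Every *top1α-2* value lay above every wild-type value, and wild-type replicate 1 was the lowest. The difference was 0.85, with an SE of 0.16 and a 95% interval from 0.50 to 1.20, and limma gave an adjusted p of 0.00651. It was called with each single array left out, at adjusted p values of 0.00841 to 0.0335.

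*ndhC*, a small membrane subunit, read 11.79, 11.69 and 11.69 in the wild type and 12.26, 12.22 and 12.04 in *top1α-2*. The groups did not overlap, and the 3 wild-type arrays lay close together, with an SD of 0.06. The difference was 0.45, with an SE of 0.11, and limma gave an adjusted p of 0.028. This call was lost without any of 4 of the 6 arrays, at adjusted p values of 0.062 without wild-type replicate 2, 0.102 without wild-type replicate 3, 0.0949 without *top1α-2* replicate 1 and 0.0946 without *top1α-2* replicate 2. It was also lost after quantile normalization, at 0.0703.

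*ndhD*, a large membrane subunit of the proton-pumping type, read 10.76, 11.07 and 10.24 in the wild type and 11.14, 11.23 and 10.83 in *top1α-2*. The groups overlapped, since wild-type replicate 2 lay above *top1α-2* replicate 3. The difference was 0.38 with a 95% interval from −0.05 to 0.80 and a limma adjusted p of 0.273. *ndhE*, the smallest of these membrane subunits, read 7.68, 7.10 and 6.99 in the wild type and 7.64, 7.78 and 7.76 in *top1α-2*. Only wild-type replicate 1 reached the *top1α-2* range, and the difference of 0.47 had an interval from −0.01 to 0.95 and an adjusted p of 0.227.

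*ndhF* and *ndhG* were the genes with negative differences, and both encode membrane subunits. *ndhF* was dim and erratic, at 5.93, 1.15 and 4.31 in the wild type and 1.23, 4.75 and 2.16 in *top1α-2*. The *top1α-2* values lay within the range of the wild-type values, and the difference of −1.08 had an interval from −3.90 to 1.73. With single arrays left out it ran from −2.41 to −0.02, the latter without wild-type replicate 1. *ndhG* read 8.01, 6.42 and 5.84 in the wild type and 6.53, 6.77 and 6.33 in *top1α-2*. Wild-type replicate 1 stood above the other 5 arrays, and the difference was −0.21 with all arrays and 0.41 without that array, with limma adjusted p values of 0.84 and 0.549.

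**Figure D1:**
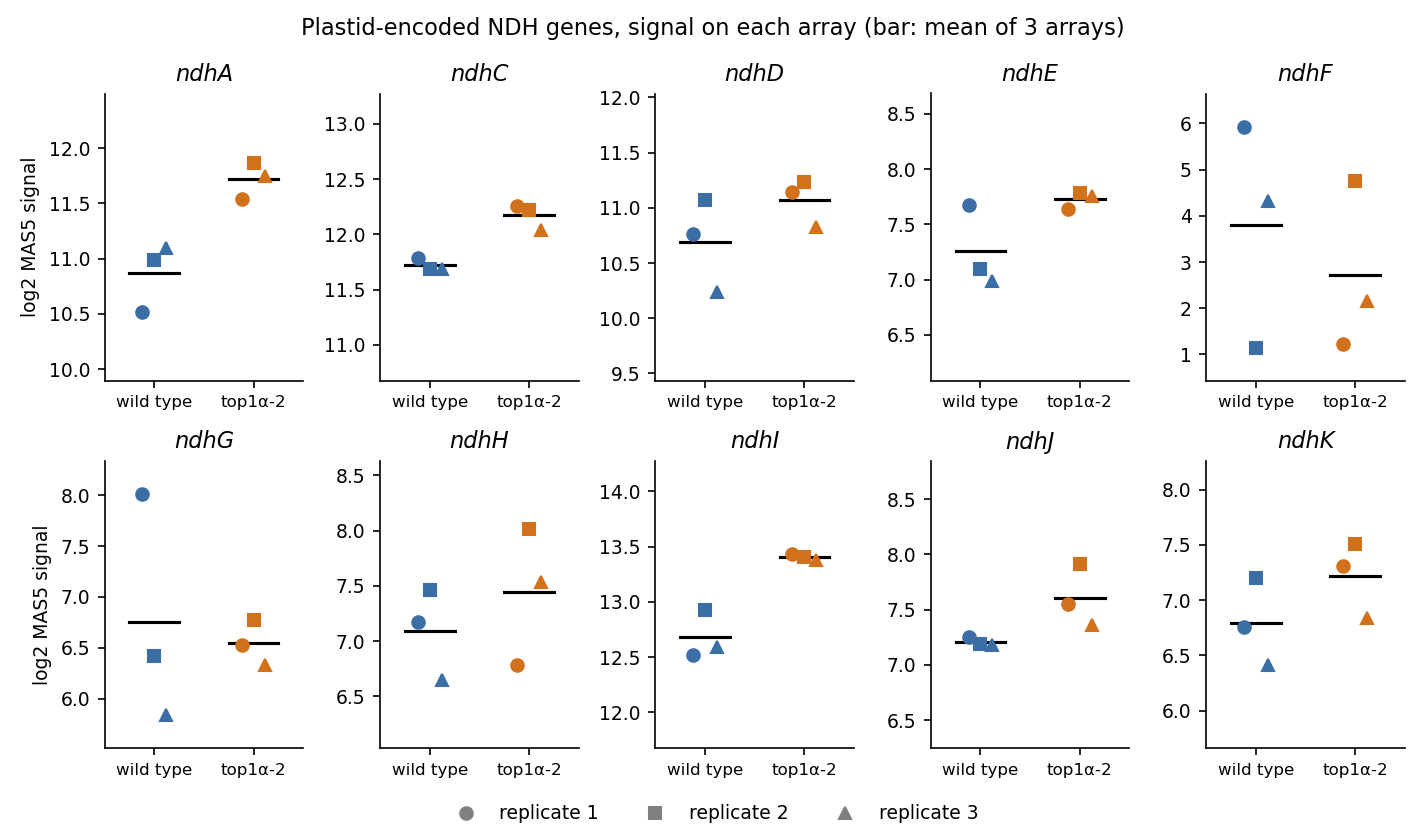
Log2 MAS5 signal (vertical axis, a separate scale in each panel) of the 10 plastid-encoded NDH genes on each array, by genotype (horizontal axis). Points are single arrays, marked by replicate number, and bars are means of 3 arrays. In *ndhA*, *ndhC*, *ndhI* and *ndhJ* all *top1α-2* points lie above all wild-type points, and in *ndhF* the points run from 1.15 to 5.93.

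Among the genes of the stromal arm, *ndhI*, which encodes an iron-sulfur subunit, read 12.52, 12.93 and 12.59 in the wild type and 13.43, 13.41 and 13.38 in *top1α-2*. The groups did not overlap, and the *top1α-2* arrays had an SD of 0.03. The difference was 0.73, with an SE of 0.14 and an interval from 0.41 to 1.04, and limma gave an adjusted p of 0.00914. The call was lost without wild-type replicate 3, at 0.054, and held without each of the other 5 arrays.

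*ndhJ*, a stromal subunit, read 7.25, 7.19 and 7.18 in the wild type and 7.55, 7.91 and 7.36 in *top1α-2*. The groups did not overlap, but the *top1α-2* arrays were spread, and the difference of 0.40 had a limma adjusted p of 0.272. *ndhK*, another iron-sulfur subunit, read 6.76, 7.20 and 6.41 in the wild type and 7.31, 7.51 and 6.84 in *top1α-2*, with overlap. Its difference was 0.43, with an interval from −0.19 to 1.05. *ndhH* read 7.17, 7.46 and 6.65 in the wild type and 6.78, 8.01 and 7.53 in *top1α-2*. Here *top1α-2* replicate 1 fell within the wild-type range, and the difference of 0.35 had an interval from −0.37 to 1.07.

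In all, the genotypes were separated, with *top1α-2* higher, in 4 of the 10 genes. Of all probe sets, 13.7% were separated that way and 28.3% in either direction. The calls followed the brightness of the probe sets. Of 4 genes with a mean signal above the median of all probe sets, which was 7.73, 3 were called, and their SEs were 0.11 to 0.19. Of the 6 dimmer genes 0 were called by limma, with SEs of 0.20 to 1.27. The intervals of *ndhE*, *ndhF*, *ndhH* and *ndhK* took in 0 and also the estimate of *ndhA*, so these arrays do not separate them from either. Among the brighter probe sets of the whole table, 5.69% were called higher.

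**Figure D2:**
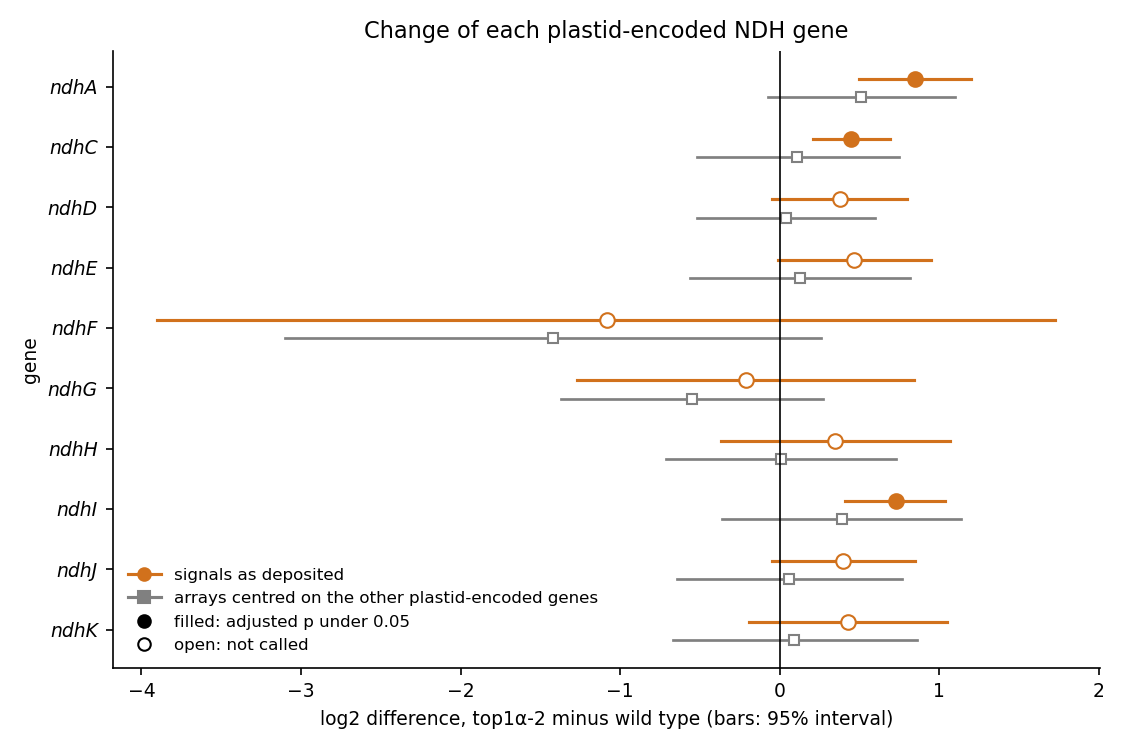
Log2 difference, *top1α-2* minus wild type (horizontal axis), of each plastid-encoded NDH gene (vertical axis), with the 95% interval of the limma fit. Circles are the signals as deposited and squares are the same fit after each array was shifted to an equal mean of the other plastid-encoded genes, where *ndhA* has 0.51 and *ndhC* 0.11. Filled symbols are calls, of which there are 3 among the circles and 0 among the squares.

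The 10 genes lie in 3 stretches of the plastid genome, which are transcribed in bacterial-type gene clusters. In the gene order of assembly TAIR10.1, used here for order alone, *ndhJ*, *ndhK* and *ndhC* are neighbours and are flanked among the measured genes by *rps4* and *atpE*. Differences along this stretch were 0.40, 0.43 and 0.45 for the NDH genes, 0.46 for *rps4*, of a ribosomal protein, and 0.43 for *atpE*, of an ATP synthase subunit. All 5 estimates were close, and among them only *ndhC*, with the smallest SE, was called.

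The second stretch holds *ndhD*, *psaC*, *ndhE*, *ndhG*, *ndhI*, *ndhA* and *ndhH*, followed by *rps15*. *psaC*, of an iron-sulfur subunit of photosystem I, lies between NDH genes and had a difference of 0.52, with an SE of 0.25, and was not called (limma adjusted p of 0.246). *rps15*, of a ribosomal protein, had 0.44. The highest values of the stretch were those of *ndhI* and *ndhA*, which are direct neighbours, while *ndhG* and *ndhH* on either side had −0.21 and 0.35.

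Ratios taken within an array were compared between the genotypes for neighbours in both stretches. The log2 ratio of *ndhI* to *ndhA* changed by −0.12 between the genotypes, with wild-type arrays at 1.81 ± 0.28 and *top1α-2* arrays at 1.69 ± 0.18 (SD, n = 3). The ratio of *ndhA* to *ndhH* changed by 0.50, from 3.78 ± 0.59 to 4.28 ± 0.45, and that of *ndhI* to *ndhG* by 0.94, from 5.92 ± 1.23 to 6.86 ± 0.21. In the latter, wild-type replicate 1 lay apart, at 4.51 against 6.51 and 6.75. The ratio of *ndhE* to *ndhG* changed by 0.68. Those of *ndhC* to *atpE*, *ndhC* to *ndhK*, *ndhK* to *ndhJ*, *psaC* to *ndhE* and *psaC* to *ndhD* changed by 0.02 to 0.14. In each of these ratios the arrays of the genotypes overlapped, so a different response of neighbours is not shown.

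Among the measured genes, *ndhF* lies next to *rpl32*, of a ribosomal protein. It is separated from *ndhD* of the second stretch by *rpl32* and by *ccsA*, a gene of cytochrome c assembly that adjoins *ndhD*. *rpl32* had a difference of 0.29 and *ccsA* 0.19, and neither was called. Sequences of these genes are not shown here.

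**Figure D3:**
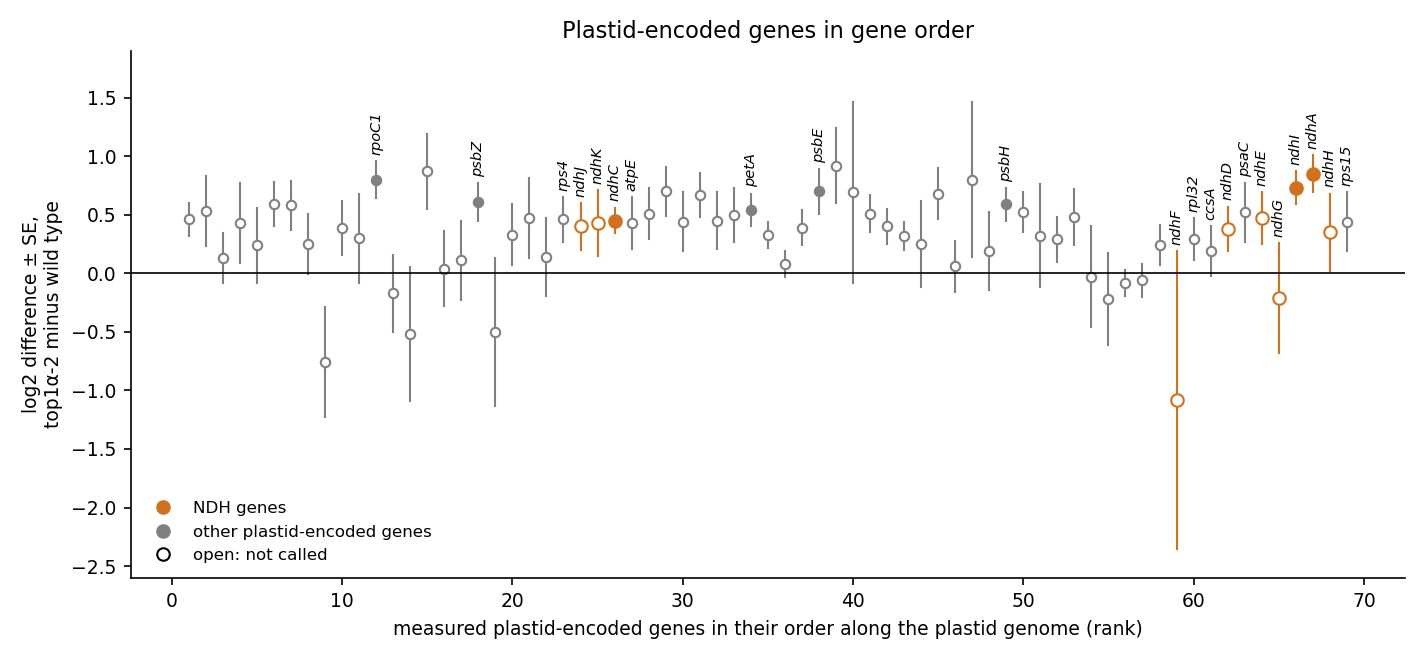
Log2 difference ± SE, *top1α-2* minus wild type (vertical axis), of 69 plastid-encoded genes in the order in which they lie on the plastid genome (horizontal axis, rank). The NDH genes (orange) lie among other genes (grey) with similar differences, and filled points are the 3 NDH genes and 5 other genes that were called.

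The differences of the NDH genes were close to those of the other plastid-encoded genes. Of 59 other plastid-encoded genes, 5 were called higher, beside shares of 3.4% of all probe sets and 5.69% of the brighter ones. Of the same 59, 0 were called lower, 51 had positive differences, and the median was 0.40. Without wild-type replicate 3 the median was 0.22 and 40 were positive, while the median of the NDH genes was then 0.29. The called genes were *rpoC1*, of the plastid RNA polymerase, at 0.80, *psbE*, *psbZ* and *psbH*, of photosystem II, at 0.70, 0.61 and 0.59, and *petA*, of the cytochrome complex, at 0.54. Of these, *rpoC1* lost its call without 1 array, *psbH* without 4 and the other 3 without 5 of the 6, at adjusted p values of up to 0.136. Higher calls over all probe sets also moved with the array left out. They were 773 with all arrays, 794 without wild-type replicate 2 and 357 without *top1α-2* replicate 1. Without wild-type replicate 3, where 1 NDH gene was called, there were 526. By class, medians ran from 0.25 for genes of large ribosomal subunit proteins to 0.53 for those of the cytochrome complex, with 0.51 for photosystem I and 0.39 for photosystem II.

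When each array was shifted to an equal mean of these 59 genes, 0 of the 10 NDH genes were called by limma, at adjusted p values of 0.335 and more. At an unadjusted p under 0.05 there were also 0. Of the 10 NDH genes 8 were then positive, with a median of 0.08, and of the 59 other genes 32 were, with a median of 0.06. Apart from *ndhA* and *ndhI*, the positive NDH differences were 0.01 to 0.13, with SEs of 0.29 to 0.39. On that scale 8.86% of all probe sets were called, with 103 higher (0.453%) and 1912 lower, so higher calls were rare in the whole table as well. The difference that remained for *ndhA* was 0.51 with an SE of 0.30 and an interval from −0.07 to 1.10, for *ndhI* 0.39 with an interval from −0.36 to 1.14 and for *ndhC* 0.11. Relative to the other plastid-encoded genes, *ndhA* read 0.66, 1.17 and 1.73 on the wild-type arrays and 1.43, 1.62 and 2.06 on the *top1α-2* arrays, and the groups overlapped. A change of the NDH genes beyond that of the other plastid-encoded genes was therefore not detected with 3 arrays per genotype. The errors were wider after the shift, so such a change could be missed. SEs were 0.30 for *ndhA*, 0.38 for *ndhI* and 0.32 for *ndhC*, against 0.16, 0.14 and 0.11 as deposited.

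The mean of the 10 genes was 8.84, 8.32 and 8.30 on the wild-type arrays and 8.54, 9.15 and 8.60 on the *top1α-2* arrays, with overlap. This mean carries the scatter of *ndhF*. Without *ndhF*, a choice made after seeing the data, the means were 9.16, 9.12 and 8.74 against 9.35, 9.63 and 9.31, so that the genotypes no longer overlapped, and they differed by 0.43.

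Within *top1α-2*, replicate 2 was the highest array in 8 of the 10 genes and replicate 3 the lowest in 6. Within the wild type, replicate 3 was the lowest in 6. The other plastid-encoded genes had their lowest array mean in replicate 3 of both genotypes, at 9.37 in the wild type and 9.69 in *top1α-2*.

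The nuclear genes of the complex were measured for 10 of 33 loci listed, and limma called 0 of them, with 4 at an unadjusted p under 0.05. Those 4 were the 4 measured subunit loci, each with *top1α-2* values above all wild-type values. Of all probe sets, 13.7% were separated that way. The RNA maturation genes *CRR21* and *CRR28* were also separated, so this was not particular to the subunits. *NdhL*, a membrane-bound subunit of the stromal arm, read 8.78, 9.23 and 9.63 in the wild type and 9.84, 9.90 and 9.79 in *top1α-2*. *NdhN*, of the stromal arm, read 8.95, 9.82 and 9.61 in the wild type and 10.07, 10.09 and 10.02 in *top1α-2*. *NdhS*, which forms the docking site for ferredoxin, read 9.90, 10.33 and 10.18 in the wild type and 10.76, 10.54 and 10.50 in *top1α-2*. In each of the 3, wild-type replicate 1 was the lowest array.

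The differences were 0.63 with an SE of 0.18 for *NdhL*, 0.60 with 0.19 for *NdhN* and 0.46 with 0.13 for *NdhS*, and 0.41 with 0.14 for the listed locus AT2G04039. Their limma adjusted p values were 0.0572, 0.0792, 0.0507 and 0.0974, all above the threshold. With arrays set to equal medians 3 of the 4 passed, all but *NdhN*, and 10.2% of all probe sets were called, against 9.26% as deposited. Without the dimmest 50% of probe sets, *NdhL* and *NdhS* passed, and 14.9% of the remaining probe sets were called.

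Of the 6 genes for RNA maturation measured, 0 were called by limma and 0 had an unadjusted p under 0.05. *CRR21*, *CRR22*, *CRR28*, *OTP80*, *OTP84* and *OTP85* encode pentatricopeptide repeat proteins that edit plastid transcripts, several of them at sites in NDH genes. *CRR21*, needed for editing of the *ndhD* transcript, read 7.91, 7.56 and 7.85 in the wild type and 7.94, 8.13 and 8.13 in *top1α-2*, a difference of 0.29 with an adjusted p of 0.325. *CRR22* and *CRR28*, which also act on NDH transcripts, had 0.50 and 0.13, and *OTP84* had 0.25. *OTP80* and *OTP85* were dim, with differences of −0.06 and −1.28 and SEs of 0.81 and 0.76. *OTP85* was low on *top1α-2* replicate 2, at 2.67, and without that array its difference was −0.29.

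Of 4 loci for other routes of electrons around photosystem I and to oxygen, *PGRL1B* was measured. It had a difference of 0.32 and an adjusted p of 0.186. The 9 listed loci for plastid sigma factors, the phage-type plastid RNA polymerase and DNA gyrase were not analysed here, as 0 had a probe set named for that gene alone.

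**Figure D4:**
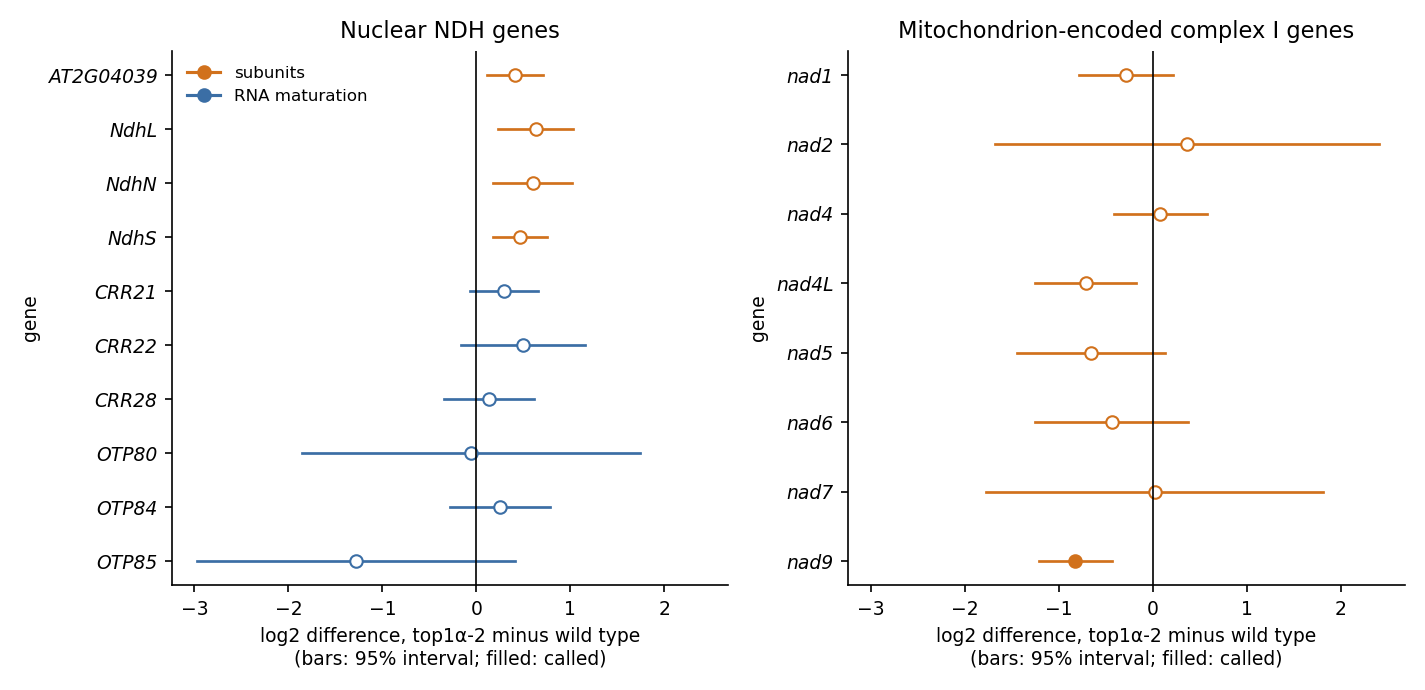
Log2 difference, *top1α-2* minus wild type (horizontal axis), with 95% intervals, of 10 nuclear NDH genes (left) and 8 mitochondrion-encoded complex I genes (right). Filled points are calls. The 4 nuclear subunit loci have intervals above 0, and *nad9* at −0.83 is the called gene.

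The mitochondrial genome encodes relatives of several of these subunits for complex I. Of 8 such genes measured, *nad9* fell and 0 rose, and the median difference was −0.37. It was −0.73 without wild-type replicate 3 and −0.24 without wild-type replicate 1. Over all probe sets 5.86% were called lower. *nad9*, the relative of *ndhJ*, read 8.10, 7.83 and 7.89 in the wild type and 7.09, 7.14 and 7.11 in *top1α-2*, so it fell by 0.83, with an SE of 0.17, at an adjusted p of 0.014 by limma. It was lost without wild-type replicate 1, at 0.0521, and without *top1α-2* replicate 3, at 0.0506. *nad4L*, the relative of *ndhE*, had −0.71 with an adjusted p of 0.102, and *nad1*, the relative of *ndhA*, had −0.29. The difference in direction between the plastid and mitochondrial relatives was not tested.

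Other transcripts moved along with the NDH genes. In bulk tissue, fewer cells of a type and less RNA per cell cannot be told apart. The share called higher was 3.4% of all probe sets and 5.69% of the brighter ones, and 5.86% of all were called lower. Of 11 nuclear photosynthesis genes, 4 were called higher and 0 lower, with a median of 0.57. The 4 were *LHCB4.2* and *PSBW* of photosystem II, *PORB* of chlorophyll synthesis and the calcium sensor gene *CaS*. Array means of the 11 genes were 11.85 to 12.38 for wild-type and 12.63 to 12.86 for *top1α-2* inflorescences. Pollen genes were listed because they had moved in earlier results of these data, so their fall is not a separate finding. Of 19 pollen genes, 15 were called lower and 0 higher, with a median of −1.77. Their summed unlogged signal was 9555 to 15182 on wild-type and 3848 to 4345 on *top1α-2* arrays, and the lowest single value on the list was 0.02 on the log2 scale, in *AGL94*. Wild-type replicate 1 had the highest pollen mean, at 8.79, and the lowest photosynthesis mean. It was also the lowest wild-type array for *ndhA* and *ndhI* and the highest for *ndhC*, *ndhE*, *ndhF*, *ndhG* and *ndhJ*. The actin control ratio that was separated was 3.57 ± 0.19 on wild-type and 4.03 ± 0.07 on *top1α-2* arrays (SD, n = 3). Another actin control had 0.70 ± 0.14 and 0.74 ± 0.13, with overlap. The part of pollen content, green tissue or RNA quality in the NDH result was not tested. Without wild-type replicate 1, all of *ndhA*, *ndhC* and *ndhI* were called, and *ndhA* had 0.67. The other wild-type arrays had pollen means of 7.84 and 8.15, against 6.55 to 6.59 in *top1α-2*, so that fit does not test pollen content.

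**Figure D5:**
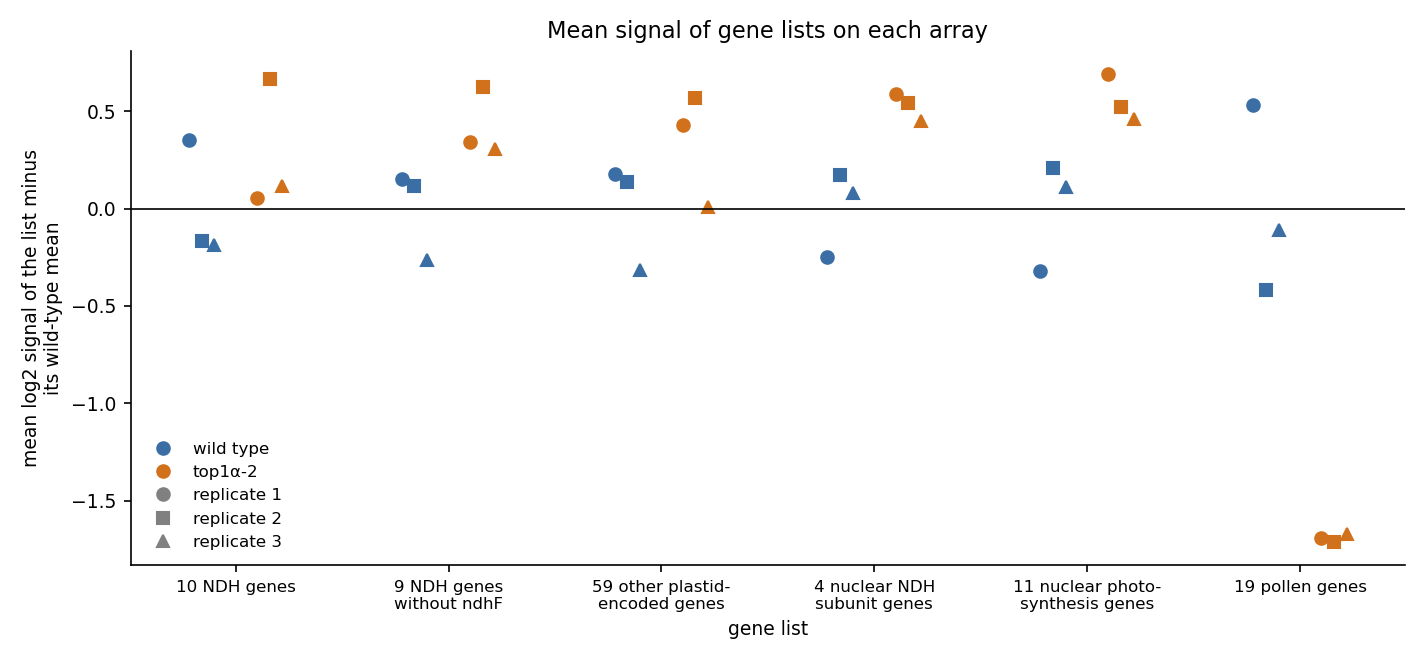
Mean log2 signal of 5 gene lists on each array, and of the NDH genes without *ndhF*, as the difference from the wild-type mean of the same list (vertical axis), by list (horizontal axis). Points are single arrays. The 10 NDH genes and the 59 other plastid-encoded genes overlap between genotypes, while the 4 nuclear NDH subunit loci, the 11 nuclear photosynthesis genes and the 19 pollen genes do not.

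Likeness to the NDH genes was described by Pearson's r with their array mean over 6 arrays, among genes above the median signal. With all 10 genes in the mean, the closest of 46 plastid-encoded genes were *psbB* at 0.791, *rpoC2* at 0.744, *psaC* at 0.659, *rpl14* at 0.652 and *rpoC1* at 0.651. The closest of 5819 nuclear genes were AT5G62440 at 0.948, AT1G67850 at 0.938, AT1G80400 and AT1G13190 at 0.937 and AT3G01160 at 0.93. Without *ndhF*, the closest plastid-encoded gene was *psaC*, which lies between *ndhD* and *ndhE*, at 0.923, followed by *psaI* at 0.905 and *rpoC1* at 0.894. The closest nuclear gene was then AT4G04630 at 0.989. These values describe 6 arrays that share genotype groups and scaling, and each is the highest of many genes compared.

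The NDH genes also differed in how well they followed each other. With all 10 genes, r of a gene with the mean of the others was 0.74 and 0.75 for *ndhJ* and *ndhE*, 0.39 to 0.56 for *ndhC*, *ndhD*, *ndhG*, *ndhH* and *ndhK*, 0.20 for *ndhI*, 0.15 for *ndhA* and −0.06 for *ndhF*. With *ndhF* left out, a choice made after seeing the data, r was 0.78 to 0.84 for *ndhC*, *ndhD*, *ndhE*, *ndhJ* and *ndhK*, 0.72 for *ndhI*, 0.62 for *ndhH*, 0.49 for *ndhA* and 0.04 for *ndhG*. The order of the genes thus depended on *ndhF*, and *ndhG* had 0.42 with it and 0.04 without it.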

How the data were processed

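The deposited table holds log2 MAS5 signals, with a column for each array. The authors made them with affy and MAS5, per the submitters' processing notes. MAS5 corrects background and summarises probes within each array. The notes name no versions, detection calls or filters. The unlogged signals have a mean of 500 on every array after 2% is trimmed from each end.

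After 64 control probe sets were set aside, 22746 were fitted with limma 3.58.1 in R 4.3.3 (lmFit and eBayes with a trend, genotype as the only term) and adjusted by Benjamini-Hochberg over all of them. No further normalization or filter was used. The fit was tested on simulated data. Precision is limited by 3 arrays per genotype.

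The annotation named 1 gene for 13513 probe sets, several for 503 and none for 8730. By gene ID, 13436 matched RefSeq genes of TAIR10.1, which gave symbols, locus codes and gene order. For genes with several probe sets the brightest was used.

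All 10 NDH genes are named. Of other lists, called genes, those with the smallest p and neighbours of NDH genes are named. Likeness used the 5 highest r. Members and lists were chosen with earlier results of these data known. Alternatives were equal medians, quantile normalization, centring on other plastid-encoded genes, a prior without trend, a pseudocount of 16, removal of the dimmest 50% of probe sets, the replicate number as a block and each array left out.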

Additional observations from a re-analysis of the deposited data

Results flagged for a closer look

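The separated actin control ratio given above comes from control probe sets, which were left out of the fit, and it was higher in *top1α-2* than in the wild type. For an actin control, the log2 signal of its 3′ probe set minus that of its 5′ probe set was 3.42, 3.50 and 3.79 on the wild-type arrays and 4.05, 3.95 and 4.09 on the *top1α-2* arrays, higher by 0.46 with no overlap. The other 5 such ratios overlapped between the genotypes, among them that of another actin control, which differed by 0.04. How this bears on the NDH genes was not tested.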

How the results depend on the processing

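With 3 arrays per genotype and signals below the median for 6 of the 10 genes, changes of the dimmer NDH genes could be missed. In place of 3 NDH genes, 0 were called after centring on the other plastid-encoded genes and 0 with a variance prior without trend, and 1 to 3 with single arrays left out, the lowest without wild-type replicate 3. With the prior without trend the adjusted p values of *ndhA*, *ndhI* and *ndhC* were 0.0919, 0.065 and 0.118, and 3.7% of all probe sets were called. The cause was not tested. Median centring, the pseudocount, removal of dim probe sets and the replicate block left 3 calls, and quantile normalization 2. Of nuclear NDH genes, 0 as reported, 3 were called with equal medians and 2 without the dimmest 50% of probe sets. After centring 1 was (*OTP85*, lower, whose difference rests on *top1α-2* replicate 2), and 0 to 2 with single arrays left out. Of other plastid-encoded genes, 5 as reported, 9 were called with equal medians, 0 after centring and 0 with the prior without trend. Single arrays left out gave 0 (without *top1α-2* replicate 1) to 14 (without wild-type replicate 2), beside 357 and 794 higher over all probe sets. Of mitochondrial complex I genes, 1 as reported, 0 were called without the dimmest 50%, a filter that left 1 of 8 genes, and 0 to 1 with single arrays left out. The cause of these changes was not tested.

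With the replicate number as a block, 3 NDH genes, 1 nuclear NDH gene (*NdhL*, adjusted p of 0.0471), 12 other plastid-encoded genes (*psaC* among them, at 0.0292) and 1 mitochondrial gene were called. Over all probe sets, 748 were then called higher and 1342 lower, against 773 and 1334 without the block. Arrays of the same number correlated in their deviations from the genotype means at 0.028, 0.001 and 0.021 over all probe sets. Over the measured plastid-encoded genes these values were −0.068, −0.338 and 0.54, and over the NDH genes −0.713, −0.901 and −0.234. The numbers are not taken as pairs in the main fit, and a pairing limited to plastid transcripts, as in replicate 3, was not tested.

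Of the 10 NDH genes, 8 had positive differences as deposited, with equal medians and after quantile normalization. After centring 8 were also positive, but the median of the 10 was 0.08. Some differences that were not called changed sign. With single arrays left out, *ndhG* ran from −0.67 to 0.41 (0.41 without wild-type replicate 1), *OTP80* from −0.46 to 0.37 and *ccsA* from −0.08 to 0.36. After centring, *OTP84* had −0.09, *CRR28* −0.20, *CRR21* −0.04, *PGRL1B* −0.01, *rpl32* −0.04 and *ccsA* −0.15. *OTP80* had 0.03 with equal medians and 0.18 after quantile normalization. Centring moved the median of all probe sets by −0.34, so differences on that scale are relative to plastid transcripts. With equal medians, the calls over all probe sets went from 773 higher and 1334 lower to 1153 and 1167. With the prior without trend there were 209 and 633.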
